A study of Mus musculus with 12 samples.

Results

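Cytosolic ribosomal protein genes were examined in endothelial cells of the adult mouse brain cortex. The members were the 90 genes, of 21638 in the deposited table, whose symbol begins with Rpl or Rps followed by a digit, or is Rplp0, Rplp1, Rplp2 or Rpsa. Rps6k kinase genes and Rps19bp1 were left out, and the rule used names only. By name, 43 members encode large subunit proteins, 31 small subunit proteins (Rpsa among them) and 3 the stalk, while 7 are paralogs (Rpl3l, Rpl7l1, Rpl10l, Rpl22l1, Rpl36al, Rpl39l and Rps27l) and 6 are retrocopies (Rps27rt and the genes with a ps suffix). All 90 were matched by symbol and position to protein-coding genes of GENCODE M21 on GRCm38.

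The cells had been sorted as CD31+ CD41- CD45-, a gate that keeps endothelium and leaves out platelets and leukocytes. SMART-Seq v4 PLUS, which copies and amplifies whole mRNAs from small cell numbers, was used to make the libraries. There were 4 groups of 3 libraries. The first was wild type (WT), for which neither Cre nor tamoxifen is mentioned. The second was Hdac2 ECKO, an endothelial knockout of a histone deacetylase gene with the genotype Hdac2lox/lox:Cdh5CreERT2. The third was Ezh2 ECKO, an endothelial knockout of a histone methyltransferase gene with the genotype Ezh2lox/lox:Cdh5CreERT2. The fourth was beta-catenin GOF, a constitutive activation with the genotype Ctnnb1lox/lox:Cdh5CreERT2. Cdh5CreERT2 is a Cre recombinase that the Cdh5 promoter expresses in vascular endothelium and that tamoxifen activates. The mutants received 5 doses of tamoxifen at 75 mg/kg, and brains were taken 2 months later. The number of animals behind a library is not given, so p-values measure the spread between libraries, which may be technical.

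The ribosome consists of a small subunit, which decodes the mRNA, and a large subunit, which forms the peptide bond. Each holds ribosomal RNA and a set of proteins that are used in equal numbers, apart from the stalk, where the Rplp0 protein anchors pairs of Rplp1 and Rplp2 proteins that recruit elongation factors. Ribosomal protein mRNAs begin with a C followed by a run of pyrimidines (the 5′ TOP motif), through which mTORC1 and Larp1 govern their translation. Their promoters commonly hold sites for Ets-family factors such as Gabpa, whose core is CGGAAG.

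Because the members are known to share these start-site features, the sequence around the start is shown before the values. RefSeq promoters on GRCm38.p6 were matched by symbol for 65 of the 90 members. The first lines give 30 bases, from 15 before the start to 15 from it on, of members with a pyrimidine run of at least 5 bases from the start on, which is in capitals and is drawn through the start. The last 3 are members without such a run.
Rpl38: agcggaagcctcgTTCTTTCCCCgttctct
Rpl35: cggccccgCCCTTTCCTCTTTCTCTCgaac
Rps27: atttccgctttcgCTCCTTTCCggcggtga
Rps10: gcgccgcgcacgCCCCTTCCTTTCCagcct
Rps15a: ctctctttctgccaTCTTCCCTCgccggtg
Rplp0: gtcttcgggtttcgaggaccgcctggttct
Rpl7l1: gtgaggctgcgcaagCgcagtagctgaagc
Rpl22l1: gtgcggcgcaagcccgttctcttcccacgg
These windows lie at chr11:114668565-114668594 (plus strand, Rpl38), chr2:39005117-39005146 (minus, Rpl35), chr3:90213634-90213663 (minus, Rps27), chr17:27635230-27635259 (minus, Rps10), chr7:118116133-118116162 (minus, Rps15a), chr5:115559452-115559481 (plus, Rplp0), chr17:46782642-46782671 (minus, Rpl7l1) and chr3:28805493-28805522 (plus, Rpl22l1). The annotated RefSeq start may differ by a few bases from the start used in these cells.

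A run of at least 5 pyrimidines from the start on, on the sense strand, was present in 17 of 65 members (26.2%), against 5.28% of 27025 genes with a promoter. CGGAAG on either strand within 300 bases (250 before the start and 50 after) was present in 43 of 65 members (66.2%), against 18.8% of all genes. CTTTCC on either strand, which can lie within a pyrimidine run, was present in 35 members (53.8% against 29.3%), TCGCGA in 14 (21.5% against 2.86%) and TATAAA in 7 (10.8% against 15.7%). The 100 bases before the start of Rpl38 (chr11:114668480-114668579) hold CGGAAG at adjacent positions, in capitals, and those of Rplp0 (chr5:115559367-115559466) hold none.
Rpl38 upstream: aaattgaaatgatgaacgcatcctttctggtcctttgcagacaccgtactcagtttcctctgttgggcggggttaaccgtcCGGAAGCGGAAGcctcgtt
Rplp0 upstream: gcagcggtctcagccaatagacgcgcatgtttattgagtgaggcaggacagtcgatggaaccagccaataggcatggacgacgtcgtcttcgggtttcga
Rpl38 and Rplp0 are shown because they lay near opposite ends of the members' changes, as described below.

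Before the comparisons, the libraries were checked. Library totals were 24781070 to 36109975 counts. All 12 endothelial markers (Pecam1, Cdh5 and Cldn5 among them) were above 3 counts in every library, with summed levels of 34746 to 44248 CPM in WT, 29071 to 32381 in Hdac2 ECKO, 34197 to 47266 in Ezh2 ECKO and 41496 to 49175 in beta-catenin GOF. CPM (the count divided by the TMM-scaled library total and expressed per 1e6) is the scale used for levels. The targeted genes did not pass the test in their own mutants: the log2 fold change against WT was −0.42 for Hdac2 (edgeR adjusted p 0.22), 0.40 for Ezh2 (0.61) and −0.17 for Ctnnb1 (0.96). Hdac2 was about as low in beta-catenin GOF (−0.43, edgeR adjusted p 0.88), so its change was not particular to Hdac2 ECKO. Ctnnb1 was 0.82 in Hdac2 ECKO (0.071) and 0.75 in Ezh2 ECKO (0.13). Ezh2 was not lower in the libraries labelled Ezh2 ECKO, so directions in that group rest on the label. Libraries also differed in how expression related to gene length: Spearman's rho across the 12577 genes tested between length and the deviation from the gene's mean was 0.21 to 0.42 in the 3 Hdac2 ECKO libraries and in Ezh2 ECKO 1 and 3. It was −0.34 to −0.18 in the other 7 libraries, Ezh2 ECKO 2 among them. WT 3 and Ezh2 ECKO 2 stood apart within their groups, and medians and counts of members are given below also without them.

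In WT, the level per kilobase of the deposited gene length varied widely among members, with a median of 149 CPM per kilobase over all 90. The 5 highest were Rpl38 at 1263 ± 546 CPM per kilobase (SD, n = 3 for these values), Rps27l at 755 ± 352, Rps3a1 at 704 ± 222, Rpl41 at 645 ± 212 and Rpl35 at 633 ± 255. Neighbours in that order did not differ beyond their spread. Rpl38 is a large subunit protein needed for the translation of Hox mRNAs in the embryo, and Rpl41 is the smallest ribosomal protein, with a coding length of 75 bases. The deposited length of a gene sums all its annotated exons: 28 members had a length over 3 times that of their main transcript, which lowers their value per kilobase.

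Of the 90 members, 86 had a mean count of at least 10 and were tested. Rpl3l and Rpl10l, paralogs known from muscle and testis, each had 2 counts in all 12 libraries together. The retrocopies Rpl9-ps1 and Rpl36-ps4 had 6 and 16. In WT, Rpl3l, Rpl10l and Rpl9-ps1 were at 0 counts in all 3 libraries, which allows a level of up to 0.107 CPM in each, since 3 counts corresponded to 0.0950 to 0.107 CPM there. Counting error alone is covered by that limit, and only for independent counts. Most low values were even, so a fragment often adds 2 counts, and the limit in CPM is then higher. Mature copies of ribosomal protein mRNAs are scattered over the genome, and 73 of the 90 members had a coding sequence at least 98% identical over 100 bases or more to another annotated gene, with a median of 3 such copies and 17 for Rpl21. How reads that fit several copies were counted is not given in the sources used here, so the split of counts between these members and their copies is uncertain.

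Ribosomal protein mRNAs took a larger share of the library in most mutant libraries than in WT. The 90 members held 2.26%, 2.55% and 3.76% of all counts in WT 1, 2 and 3. They held 4.62%, 3.70% and 4.06% in Hdac2 ECKO, 5.12%, 4.64% and 3.72% in Ezh2 ECKO, and 4.08%, 3.33% and 3.64% in the beta-catenin GOF libraries. WT 1 and WT 2 lay below every mutant library, and WT 3 lay within the range of each mutant group. In bulk samples, fewer cells of a type and less RNA per cell cannot be told apart.

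**Figure D1:**
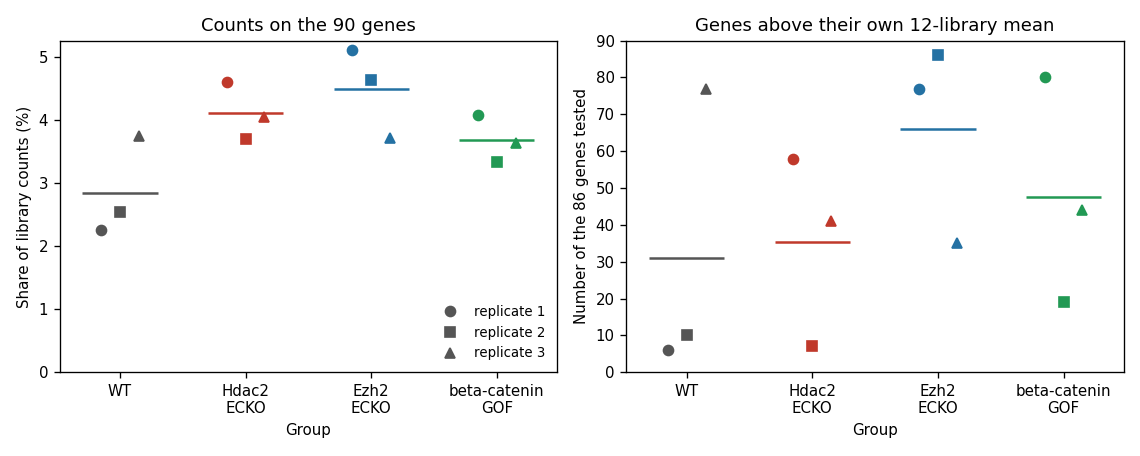
Share of each library's counts on the 90 ribosomal protein genes (left, %) and number of the 86 tested members above their own mean log2 CPM over the 12 libraries (right), by group. Points are libraries, with 1 symbol per replicate number, and lines are group means; WT 1 and WT 2 have the lowest shares, 2.26% and 2.55%, and WT 3 has 3.76%.

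Members were high or low together in many libraries. In WT 1, 6 of the 86 tested members lay above their own mean over the 12 libraries, and in WT 2, 10 did. In WT 3, 77 did, so that this library differed from the other two WT libraries in nearly the whole family. In Ezh2 ECKO 2 all 86 did, in Ezh2 ECKO 1, 77 did and in Ezh2 ECKO 3, 35 did. The counts were 58, 7 and 41 in Hdac2 ECKO 1, 2 and 3, and 80, 19 and 44 in beta-catenin GOF 1, 2 and 3. The spread within each group was therefore wide on the scale of the differences between groups.

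Markers of other cells differed between the same libraries. The 8 erythroid and platelet markers, led by the haemoglobin genes, summed to 36148 to 61418 CPM in WT, 406 to 21722 in Hdac2 ECKO, 2532 to 6714 in Ezh2 ECKO and 528 to 35413 in beta-catenin GOF, and none was at 0 throughout a group. The 12 pericyte and smooth muscle markers summed to 67.4 to 123 CPM in WT, where Cnn1 was at 0 in all 3 libraries, to 130 to 316 in Hdac2 ECKO, 56.9 to 73.0 in Ezh2 ECKO and 121 to 384 in beta-catenin GOF. Summed levels were at most 15.6 CPM for the 12 microglial and leukocyte markers, with Cd3e at 0 in WT and Ezh2 ECKO, Tmem119 at 0 in Hdac2 ECKO and 7 markers at 0 in beta-catenin GOF. They were at most 11.2 CPM for the 8 neuronal markers, 93.4 for the 8 astrocytic ones (S100b at 0 in Ezh2 ECKO, Aqp4 in beta-catenin GOF) and 80.1 for the 8 oligodendrocytic ones (Olig1 and Olig2 at 0 in each mutant group, Mog in Ezh2 ECKO and beta-catenin GOF). The part of these cells and of gene length in the results on ribosomal protein genes was not tested.

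In Hdac2 ECKO, 3 members passed the test against WT. The question was how loss of a histone deacetylase in endothelium changes expression. Rpl38 rose, while Rpl7l1, a paralog of Rpl7 with a role in ribosome assembly, and Rpl29, a large subunit protein also known for binding heparin, fell. The median log2 fold change over the 86 members was 0.30, against 0.10 over all genes tested. It was −0.49 over the 4321 other genes of like length (789 to 3510.5 bases, the 10th to 90th percentile of the tested members) and −0.41 over the 514 of these with a like level (152 to 882 CPM). A positive log2 fold change was found for 60 of 86 members (69.8%), against 30.2% of the other genes of like length.

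Rpl38 (ENSMUSG00000057322.12, chromosome 11, 114668524 to 114672331, plus strand, GRCm38) was at 453, 582 and 1018 CPM in WT and at 1947, 1067 and 1533 CPM in Hdac2 ECKO. Every Hdac2 ECKO value lay above every WT value, though WT 3 came within a narrow margin of Hdac2 ECKO 2. Its log2 fold change was 1.15 (SE 0.33, edgeR quasi-likelihood adjusted p 0.044). Rpl7l1 (ENSMUSG00000063888.7, chromosome 17, 46773907 to 46782672, minus strand) was at 126, 120 and 108 CPM in WT and at 28.7, 66.2 and 46.9 CPM in Hdac2 ECKO. The groups did not overlap, and its difference on the log2 scale was −1.32 (SE 0.36, edgeR adjusted p 0.041). Rpl29 (ENSMUSG00000048758.14, chromosome 9, 106429454 to 106431568, plus strand) was at 140, 172 and 178 CPM in WT and at 70.3, 103 and 45.0 CPM in Hdac2 ECKO. Here too the groups did not overlap, and the log2 difference was −1.17 (SE 0.33, edgeR adjusted p 0.042).

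These 3 calls of 86 (3.49%) were below the 9.2% of all genes tested and the 11.3% of other genes of like length. The 1 member called higher (1.16%) stood beside 3.82% of all genes and 0.81% of those of like length. The 2 called lower (2.33%) stood beside 5.38% and 10.5%. Of the 514 genes of like length and level, 0 were called higher and 89 lower. At an unadjusted p under 0.05 there were 19 members (22.1%), against 33.1% of all genes and 35.5% of those of like length. The values in Hdac2 ECKO lay above every WT value for 2 members, Rpl24 and Rpl38 (background 19.5%), and below every WT value for 8, namely Rpl3, Rpl4, Rpl7l1, Rpl14, Rpl29, Rplp0, Rps2 and Rpsa (background 18.2%). Among other genes of like length these shares were 5.76% above and 33.2% below. Other tools called more members: DESeq2 called 4 higher (background 10%) and 4 lower (14.6%), and limma-voom with sample quality weights called 37 higher (21.7%) and 10 lower (21%).

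The number of calls moved with single libraries. Without WT 3, 21 members were called higher (background 7.15%), and the median log2 fold change was 0.60. The median was 0.06 without WT 1, 0.17 without Hdac2 ECKO 1, and 0 members were called without either of these, without WT 2 or without Hdac2 ECKO 3. For these fits with 0 calls no share of all genes is given, so they cannot be told from a change in calls over all genes. With the trend on gene length removed from each library, 9 members were called higher (background 1.62%), with a median of 0.60.

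In the libraries labelled Ezh2 ECKO, 78 of 86 members (90.7%) had a positive log2 fold change, and the median was 0.72, against 0.05 over all genes tested, −0.28 over other genes of like length (35.8% positive) and 0.03 over those of like length and level. The comparison asked how loss of a histone methyltransferase changes expression. The edgeR test called 0 members (background 1.03%), with 50 at an unadjusted p under 0.05 (background 24.7%), while DESeq2 called 24 higher (background 5.03%) and 0 lower (5.39%). Limma-voom with quality weights called 47 higher (background 14.7%) and 4 lower (15.1%). The smallest adjusted p by edgeR was that of Rpl30. The values lay above every WT value for 22 members (background 11.1%) and below every WT value for Rpl3 alone (background 10.9%). Among other genes of like length these shares were 6.67% and 16.9%, and 26.1% were at an unadjusted p under 0.05.

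Rpl30, a large subunit protein that also takes part in selenocysteine insertion, was at 151, 190 and 287 CPM in WT and at 538, 433 and 381 CPM in Ezh2 ECKO, with no overlap. The difference, 1.11 on the log2 scale (SE 0.30), did not pass (edgeR adjusted p 0.071). Rpl39, which lines the tunnel through which the new peptide leaves, was at 91.6, 131 and 254 CPM in WT and at 498, 399.6 and 359 CPM in Ezh2 ECKO. It did not overlap either, and the log2 difference, 1.40 (SE 0.39), did not pass (edgeR adjusted p 0.072). For both genes WT 3 was the highest of the WT values.

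The lowest p among members with a negative change belonged to Rplp0 and Rpl3. Rpl3, which lies close to the peptidyl transferase centre, was at 350, 274 and 265 CPM in WT and at 188, 240 and 154 CPM in Ezh2 ECKO. The groups did not overlap, and the log2 difference, −0.61 (SE 0.29), did not pass (edgeR adjusted p 0.20). Without WT 3, edgeR called 43 members higher (background 4.5%) and the median was 1.04. Without Ezh2 ECKO 2 it called 9 higher (background 8.08%) and 3 lower (Rpl7l1, Rplp0 and Rps2; background 10.4%), the median was 0.53 and 68 of 86 members were positive. With the trend on gene length removed it called 0 (background 0.302%).

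In beta-catenin GOF, which activates the Wnt pathway in endothelium, 78 of 86 members again had a positive log2 fold change against WT, with a smaller median of 0.32 and a narrow range from −0.25 to 0.68. The median was 0.01 over all genes tested, −0.07 over other genes of like length (42.5% positive) and 0.06 over those of like length and level. The edgeR test called 0 members and 0 genes of any kind (background 0%), and DESeq2 and limma-voom called 0 members. For DESeq2 and limma-voom no share of all genes is given in this comparison, so their 0 has no background beside it. At an unadjusted p under 0.05 there was 1 member, Rpl36 (background 6.07%). Values lay above every WT value for Rpl28 and Rpl29 (background 6.83%) and below every WT value for Rpl7l1 (background 5.87%). Among other genes of like length these shares were 4.21% and 7.68%. All 3 comparisons with WT share the 3 WT libraries, so that WT 1 and WT 2, where the members were low, enter each of them.

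Rpl36, a large subunit protein, was at 143, 179 and 295 CPM in WT and at 405, 257 and 326 CPM in beta-catenin GOF. The groups overlapped, and the log2 difference, 0.68 (SE 0.31), did not pass (edgeR adjusted p 0.81). Rps29, a small zinc-binding protein of the small subunit, was at 220, 285 and 495 CPM in WT and at 682, 443 and 450 CPM in beta-catenin GOF. WT 3 overlapped the mutant values, and the log2 difference was 0.66 (SE 0.32, edgeR adjusted p 0.84). Rpl26, a large subunit protein also known to bind p53 mRNA, was at 299, 391 and 773 CPM in WT and at 405, 390 and 454 CPM in beta-catenin GOF. Its log2 fold change there was −0.23 (SE 0.33), with overlapping groups, and 0.27 without WT 3 and 0.02 with quality weights. It was 0.83 in each of the other mutants. None of these passed. Without WT 3 the members' median in beta-catenin GOF was 0.66, and without WT 1 it was 0.14.

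**Figure D2:**
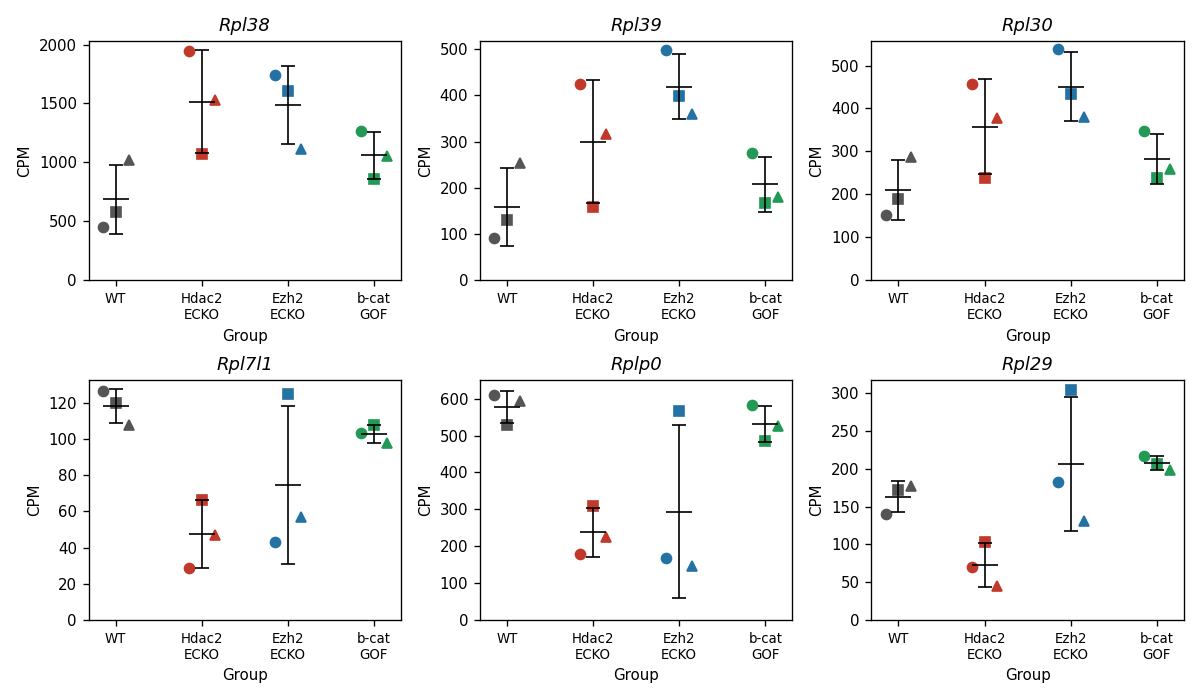
Normalised counts (CPM) of 6 members by group; points are libraries, with 1 symbol per replicate number, and black marks are the mean ± SD of 3 libraries. Rpl38, Rpl39 and Rpl30 are lowest in WT 1 and WT 2, and Rpl7l1 and Rplp0 are low in the 3 Hdac2 ECKO libraries and in Ezh2 ECKO 1 and 3, with Ezh2 ECKO 2 near the WT values.

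Between mutants no member passed the edgeR test. The median log2 fold change was −0.37 for Hdac2 ECKO against Ezh2 ECKO, with 84 of 86 members lower, 0.06 for beta-catenin GOF against Hdac2 ECKO and −0.35 for beta-catenin GOF against Ezh2 ECKO. Over other genes of like length the medians were −0.22, 0.38 and 0.21, and over those of like length and level they were −0.38 (474 of 514 lower), 0.42 and 0.03. The shift between Hdac2 ECKO and Ezh2 ECKO was thus about as large in other genes of like length and level as in the members. Without Ezh2 ECKO 2, in which all 86 members were high, the members' median was −0.20 in the first comparison (76 of 86 lower) and −0.17 in the last, against −0.13 and 0.29 over genes of like length and level. At an unadjusted p under 0.05 there were 7, 12 and 10 members, against backgrounds of 8.19%, 21.1% and 13.2% of all genes, and the backgrounds of calls were 0.0239%, 0.0716% and 0.0636%. In the same order DESeq2 called 1, 5 and 0 members (backgrounds 0.783%, 9.6% and 1.15%), and limma-voom with quality weights called 1, 18 and 8 (backgrounds 0.0875%, 26.5% and 11.7%).

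Members with shorter coding sequences had higher log2 fold changes. This relation was noticed in the data, so it is given as a description. Coding lengths of the main GENCODE M21 transcripts, without the stop codon, ran from 75 bases (Rpl41) to 1257 (Rpl4). Over the 86 members, Spearman's rho between coding length and log2 fold change was −0.75 in Hdac2 ECKO, −0.81 in Ezh2 ECKO and −0.61 in beta-catenin GOF. Over the 12290 other genes with a coding sequence it was 0.42, 0.24 and 0.12, and over the 1027 of these with a like level it was 0.06, −0.15 and −0.31. Genes in a comparison share its 6 libraries and are not independent. The deposited gene length ordered the members less closely, with rho of −0.28, −0.28 and −0.31.

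The 12 tested members of up to 300 coding bases had a median log2 fold change of 0.75 in Hdac2 ECKO, and the 30 of over 300 and up to 450 had 0.53. It was 0.09 for the 29 of over 450 and up to 700, and −0.40 for the 15 longer ones. The medians in Ezh2 ECKO were 1.00, 0.89, 0.53 and 0.11, and those in beta-catenin GOF were 0.48, 0.36, 0.29 and 0.09. Other genes of like level were also higher at short coding lengths, with medians of 0.28, 0.06, −0.47 and −0.18 in Hdac2 ECKO, 0.59, 0.41, −0.06 and 0.04 in Ezh2 ECKO. In beta-catenin GOF they were 0.35, 0.24, 0.01 and −0.07. The members' medians lay above these in every class, except in the longest class of Hdac2 ECKO.

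Of the 42 members of up to 450 coding bases, 40 had a positive change in Hdac2 ECKO (all but Rpl28 and Rpl39l), 42 in Ezh2 ECKO and 40 in beta-catenin GOF (all but Rpl26 and Rpl35a). Of the 15 over 700 bases, 4 did in Hdac2 ECKO (Rpl5, Rpl7, Rps3a1 and Rps4x), 8 in Ezh2 ECKO and 9 in beta-catenin GOF. Without Ezh2 ECKO 2, the 4 classes had medians of 0.97, 0.79, 0.34 and −0.52 in Ezh2 ECKO. Without WT 3, the medians of the 4 classes were 1.20, 0.91, 0.33 and −0.19 in Hdac2 ECKO, 1.45, 1.29, 0.87 and 0.32 in Ezh2 ECKO. In beta-catenin GOF they were then 0.89, 0.74, 0.59 and 0.30. Leaving out WT 1, where most members were low, moved them the other way. The 42 members of up to 450 bases then had medians of 0.38, 0.71 and 0.16 in Hdac2 ECKO, Ezh2 ECKO and beta-catenin GOF. The 15 over 700 bases had −0.52, −0.03 and −0.02, with 1, 6 and 5 positive. With the trend on transcript length removed, rho over the members was −0.31, −0.29 and −0.06 in the 3 comparisons, and without WT 3 it was −0.76, −0.82 and −0.80. The median log2 fold change of the other genes of like transcript length (443 to 1290 bases, 1697 genes) was −0.37 in Hdac2 ECKO, 0.00 in Ezh2 ECKO and 0.08 in beta-catenin GOF.

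**Figure D3:**
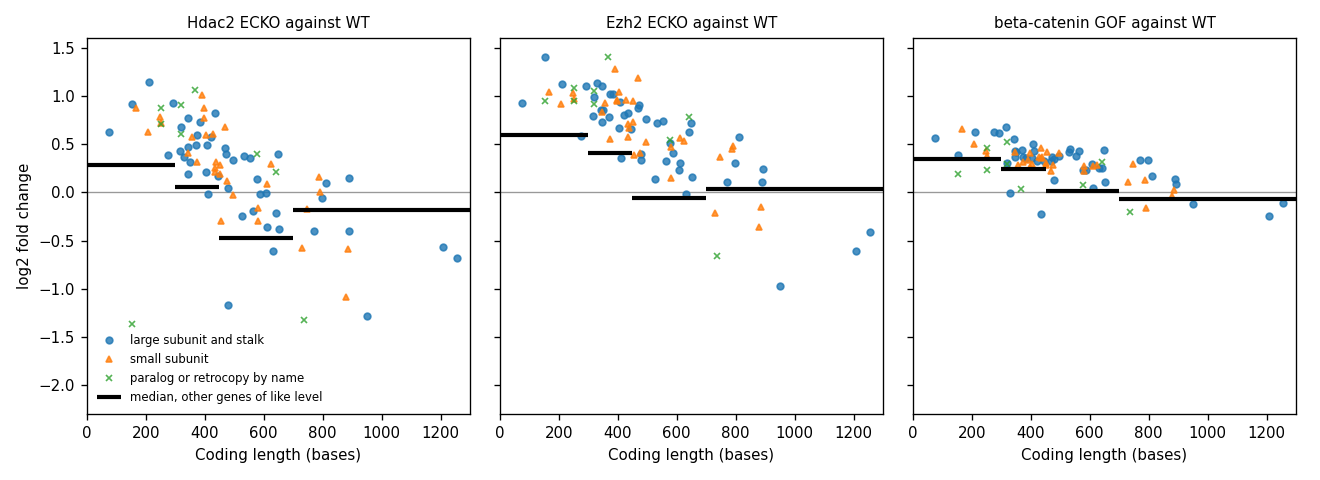
Log2 fold change against WT (y axis) by coding length in bases (x axis) for the 86 tested members in each mutant. Symbols mark the subunit or a paralog or retrocopy by name, and black bars are medians of other genes of like level in 4 classes of coding length; short members lie higher than long ones, with rho of −0.75, −0.81 and −0.61.

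The order of the classes differed between single libraries. The members of up to 300 coding bases had a median deviation from their 12-library mean of −1.19 in WT 1 and −0.75 in WT 2 on the log2 scale, while those over 700 bases had −0.21 and −0.05. In Hdac2 ECKO 1 the order was turned, at 0.65 for the shortest class and −0.52 for the longest. It was turned also in Hdac2 ECKO 3 (0.27 and −0.41), Ezh2 ECKO 1 (0.71 and −0.11) and Ezh2 ECKO 3 (0.14 and −0.44). In Hdac2 ECKO 2 it was not, with the 4 classes at −0.27, −0.32, −0.25 and −0.12. In Ezh2 ECKO 2, where the relation of all genes to length was like that of WT, the 4 classes lay close together at 0.56, 0.62, 0.74 and 0.62. Beta-catenin GOF 1 was also narrow, at 0.31, 0.26, 0.35 and 0.29, and WT 3 less so, at 0.07, 0.15, 0.27 and 0.36.

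**Figure D4:**
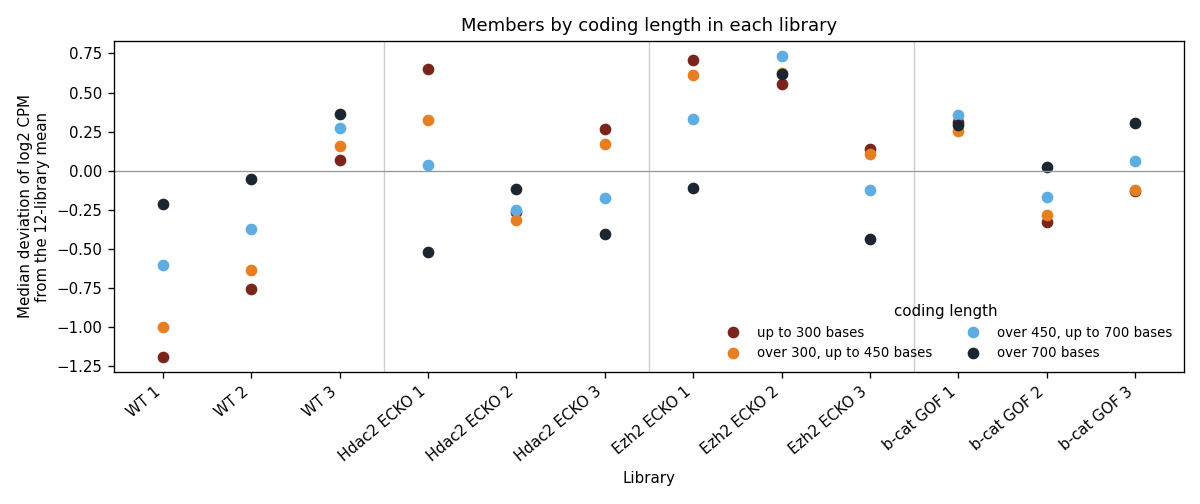
Median deviation of the tested members' log2 CPM from their own mean over the 12 libraries (y axis) for 4 classes of coding length, in each library (x axis). Within WT 1 and WT 2 the shortest class is lowest (−1.19 and −0.75), and within Hdac2 ECKO 1 it is highest (0.65). Hdac2 ECKO 2 has the shortest class at −0.27 and the longest at −0.12, and Ezh2 ECKO 2 has all 4 classes between 0.56 and 0.74.

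By subunit, the medians lay close together. The 43 large subunit genes had median log2 fold changes of 0.32, 0.67 and 0.35 in Hdac2 ECKO, Ezh2 ECKO and beta-catenin GOF, and the 31 small subunit genes 0.29, 0.67 and 0.30. Of the large subunit genes 28, 40 and 39 were positive, and of the small subunit genes 23, 28 and 29. The 13 tested members with no near-identical copy had medians of 0.21, 0.67 and 0.28, and the 73 with at least 1 copy 0.32, 0.72 and 0.32. Rpl41, with 75 coding bases, could not have a copy under the rule, which asks for a match of 100 bases. The 43 tested members with CGGAAG in the promoter had medians of 0.32, 0.73 and 0.37, against 0.16, 0.48 and 0.26 for the 20 without. The 17 with a pyrimidine run from the start on, as printed for Rpl38 and Rps15a, had 0.19, 0.73 and 0.34, against 0.31, 0.71 and 0.32 for the 46 without. Leaving out WT 3, where most members were high, raises changes against WT, and these splits are not given without WT 1. Without WT 3 the medians were 0.60, 0.99 and 0.63 for the large subunit and 0.59, 1.02 and 0.70 for the small one, 0.49, 1.06 and 0.74 with no copy and 0.62, 1.04 and 0.65 with copies. Also without WT 3, they were 0.62, 1.05 and 0.71 with CGGAAG and 0.52, 0.84 and 0.56 without it, 0.51, 1.05 and 0.70 with a run and 0.60, 1.03 and 0.63 without. Without Ezh2 ECKO 2, the medians in Ezh2 ECKO were 0.50 and 0.44 for the large and small subunit, 0.51 and 0.54 without and with copies, 0.56 and 0.40 with and without CGGAAG, and 0.52 and 0.49 with and without a run.

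The stalk has a long base and short partners. Rplp0 (coding length 951 bases) was at 611, 528 and 594 CPM in WT, at 179, 309 and 225 CPM in Hdac2 ECKO, at 169, 566 and 147 CPM in Ezh2 ECKO, and at 582, 486 and 525 CPM in beta-catenin GOF. All Hdac2 ECKO values lay below WT, while Ezh2 ECKO 2 lay within the WT range and the other 2 libraries of its group far below. The log2 fold change was −1.28 (SE 0.41) in Hdac2 ECKO and −0.97 (SE 0.40) in Ezh2 ECKO, and neither passed (edgeR adjusted p 0.056 and 0.16). Rplp0 is often used as a reference gene in quantitative PCR.

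Rplp1 (342 bases) was at 221, 254 and 419 CPM in WT, 471, 349 and 417 CPM in the Hdac2 ECKO libraries, 516, 699 and 403 CPM in Ezh2 ECKO, and 548, 355 and 407 CPM in beta-catenin GOF. Rplp2 (345 bases) was at 150, 185 and 292 CPM in WT, 253, 225 and 237 CPM in the Hdac2 ECKO libraries, 353, 440 and 246 CPM in Ezh2 ECKO, and 340, 236 and 231 CPM in beta-catenin GOF. WT overlapped each mutant group for both genes, and their log2 fold changes of 0.47, 0.86 and 0.55 (Rplp1) and 0.19, 0.73 and 0.37 (Rplp2) did not pass. Rplp2 in Hdac2 ECKO was just below 0 without WT 1 and was −0.09 with the trend on transcript length removed, with which it was also just below 0 in beta-catenin GOF. Rpsa, a small subunit protein also called the laminin receptor precursor, was at 153, 156 and 183 CPM in WT and at 91.7, 133 and 103 CPM in Hdac2 ECKO, all below WT. The log2 difference there, −0.58 (SE 0.29), did not pass (edgeR adjusted p 0.17), and it was 0.01 with the trend on transcript length removed. It was −0.15 in Ezh2 ECKO and 0.03 in beta-catenin GOF, with signs that also changed between alternatives.

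Among the tested paralogs, the short ones had positive changes in Ezh2 ECKO. Rpl22l1, a paralog of Rpl22, was at 110, 133 and 280 CPM in WT and at 576, 386 and 425 CPM in Ezh2 ECKO, a log2 difference of 1.40 (SE 0.42, edgeR adjusted p 0.079). Rpl22 itself was at 90.7, 104 and 208 CPM in WT and at 338, 263 and 219 CPM in Ezh2 ECKO, a log2 difference of 1.03 (SE 0.36, edgeR adjusted p 0.11). Both members of this pair were above every WT value in Ezh2 ECKO, and neither passed.

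Rps27l, a p53 target and paralog of Rps27, was at 381, 530 and 936 CPM in WT, 1421, 701 and 1280 CPM in the Hdac2 ECKO libraries, 1496, 1248 and 1184 CPM in Ezh2 ECKO, and 1095, 665 and 783 CPM in beta-catenin GOF. Rps27 gave log2 fold changes of 0.73, 0.97 and 0.38 in the 3 mutants, and Rps27l 0.88, 1.09 and 0.46. Rpl36al, a paralog of Rpl36a, gave 0.61, 0.92 and 0.52, and the retrocopy Rpl36a-ps1, which has a near-identical copy, gave 0.91, 1.05 and 0.30, with 0.062 as the adjusted p (edgeR) in Hdac2 ECKO. With the length trend removed, Rpl36a-ps1 was −0.07 in beta-catenin GOF. None of these passed.

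Rpl39l, a paralog of Rpl39 known from testis, stood at low levels: 0.902, 3.17 and 5.84 CPM in WT, 1.67, 1.76 and 0.416 CPM in the Hdac2 ECKO libraries, 6.29, 9.37 and 3.52 CPM in Ezh2 ECKO and 2.25, 4.38 and 4.65 CPM in beta-catenin GOF. The groups overlapped with WT, and the log2 difference of −1.36 (SE 0.68) in Hdac2 ECKO did not pass (edgeR adjusted p 0.18). Rpl7l1 was the only paralog that passed by edgeR in Hdac2 ECKO. It was at 43.0, 125 and 56.8 CPM in Ezh2 ECKO and at 103, 108 and 97.5 CPM in beta-catenin GOF. Its log2 fold changes of −0.66 and −0.20 there did not pass, and Rpl7 gave 0.10, 0.57 and 0.17 in the 3 mutants.

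Ribosomal proteins with other names were also examined. Fau, a fusion of a ubiquitin-like protein with a small subunit protein, had log2 fold changes of −0.04, 0.39 and 0.44 in Hdac2 ECKO, Ezh2 ECKO and beta-catenin GOF. Rack1, a scaffold on the small subunit, had −0.12, 0.37 and 0.28. Neither passed by edgeR.

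Genes that work with the ribosome were described by lists. Of 39 translation initiation factors, 3 rose and 4 fell in Hdac2 ECKO (7.69% and 10.3%, against 3.82% and 5.38% of all genes), with a median log2 fold change of −0.30. DESeq2 called 4 higher and 12 lower and limma-voom with quality weights 7 and 16, against the backgrounds given above for each tool. The 3 with the smallest p were Pabpc4, which binds poly(A) tails and rose (1.62, SE 0.29, edgeR adjusted p 0.032), Eif4a1, the helicase of cap-dependent initiation, which fell (−1.60, SE 0.34, adjusted p 0.032), and Eif1, which takes part in start codon choice and fell (−1.42, SE 0.33, adjusted p 0.034). In Ezh2 ECKO 1 gene, Pabpc4, passed by edgeR and rose (1.37, SE 0.29, edgeR adjusted p 0.048), and the median of the list was −0.18. That call is 2.56% of the list, against 1.03% of all genes called. DESeq2 called 2 higher (background 5.03%) and 2 lower (5.39%) there, and limma-voom with quality weights 7 (14.7%) and 12 (15.1%). Pabpc4 was at 11.8, 14.7 and 19.8 CPM in WT, 58.0, 35.6 and 48.9 CPM in the Hdac2 ECKO libraries, and 46.3, 28.4 and 44.9 CPM in Ezh2 ECKO, so that neither mutant overlapped WT.

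Of 11 elongation factors, Eif5a, which helps the ribosome through proline stretches, fell in Hdac2 ECKO (−2.15, SE 0.52, edgeR adjusted p 0.035). That is 9.09% of the list, against 5.38% of all genes called lower. DESeq2 called 0 higher (background 10%) and 2 lower (14.6%) there, and limma-voom with quality weights 1 (21.7%) and 4 (21%). Of 78 ribosome biogenesis factors, 2 fell there: Sbds, which helps release Eif6 from the new large subunit (−1.30, SE 0.31, adjusted p 0.034), and Imp4, a part of the small subunit processome (−0.96, SE 0.26, adjusted p 0.039). By DESeq2, 1 biogenesis factor was called higher (1.28%, background 10%) and 13 lower (16.7%, background 14.6%). By limma-voom with quality weights, 6 were called higher (7.69%, background 21.7%) and 24 lower (30.8%, background 21%). The 2 edgeR calls are 2.56% of the list, below the 5.38% of all genes called lower. The list's medians were −0.28, −0.08 and −0.08 in the 3 mutants, and those of the elongation factors −0.14, 0.22 and −0.01.

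Of 25 genes of mTORC1, Larp1 and Myc, Lamtor1, which anchors mTORC1 at the lysosome, fell in Hdac2 ECKO (−1.49, SE 0.45, edgeR adjusted p 0.050), and the medians were 0.06, −0.04 and 0.00. The call is 4% of the list, against 5.38% of all genes called lower. DESeq2 called 3 higher (background 10%) and 3 lower (14.6%) in Hdac2 ECKO, and limma-voom with quality weights 6 (21.7%) and 5 (21%). Of 14 genes of ribosomal stress and p53, Cdkn1a, the p53 target that encodes the cell-cycle inhibitor p21, fell in Hdac2 ECKO (−2.18, SE 0.32, edgeR adjusted p 0.032). It was at 207, 168 and 111 CPM in WT and at 32.5, 34.6 and 40.1 CPM in Hdac2 ECKO, with no overlap. That list had medians of −0.21, 0.13 and −0.10. The call of Cdkn1a is 7.14% of the list, against 5.38% of all genes called lower. With the same backgrounds as for the mTORC1 list, DESeq2 called 0 higher and 3 lower in Hdac2 ECKO, and limma-voom with quality weights 1 and 3. In beta-catenin GOF no gene of these lists passed by edgeR. At an unadjusted p under 0.05 were 2 initiation factors, 1 biogenesis factor and 1 p53 gene (background 6.07%). DESeq2 called 1 gene, of the p53 list, and no share of all genes is given for that tool there. The 11 snoRNA host genes of the list were not found by symbol in the deposited table.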

How the data were processed

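Per the file header the deposited table is named normalized, but its values were whole numbers, 79.5% to 84.0% of those from 10 to 50 even, and were treated as raw counts of mates as the authors deposited them. Per the submitters' processing notes, FastQC, cutadapt, STAR, featureCounts and DESeq2 were used with mm10; how reads with several matches were counted is not given in the sources used here. Library totals of 24781070 to 36109975 put 3 counts at 0.0792 to 0.118 CPM.

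Genes were tested by quasi-likelihood in edgeR 4.0.16 (R 4.3.3) with TMM scaling, in 1 fit over all 12 libraries without a block; 12577 genes whose mean count reached 10 entered. P-values were adjusted by Benjamini-Hochberg over all of them in each of 6 contrasts, with a threshold of 0.05. Standard errors were derived from the F statistic. Deviations used log2(CPM + 0.5). DESeq2 1.42.0 and limma 3.58.1 (voom with sample quality weights) were alternatives, with other scalings and filters, length trends removed as offsets and each library left out. The test was also run on counts simulated independently for each gene and library. These lacked the joint shifts of members and the relations to length seen here, so that run does not check the test under them.

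Copies were searched with megablast among GENCODE M21 transcripts, and promoters came from the RefSeq table (GRCm38.p6). Titles number the libraries: same-numbered Hdac2 ECKO and Ezh2 ECKO libraries deviated together (r 0.16, 0.38 and 0.11 across genes), a pairing that comes from the data and not from a stated design. Across the members r was 0.85, 0.90 and 0.65 for these groups, and −0.71 to 0.53 for the other pairs of groups. The block, fitted by number over all 4 groups, left the count of members called between Hdac2 ECKO and Ezh2 ECKO at 0.

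The members, lists and coding-length classes were chosen with earlier results of these data known. Members named were those with the smallest p in each direction of each comparison with WT, the largest changes against the members' median, the 5 highest and 2 lowest per kilobase in WT, the stalk, Rpsa and tested paralogs. Of the gene lists, up to 3 genes past the threshold were named; Rpl22, Rps27, Rpl7, Rpl4, Rpl5, Rpl21, Rpl24, Rpl28, Rps4x and others named as exceptions or partners were chosen after their values were seen. A gene that the naming rule also covers is not reported here.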

Additional observations from a re-analysis of the deposited data

How the results depend on the processing

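The median log2 fold change of the members against WT kept its sign in all alternatives. Leaving out 1 library gave 0.064 to 0.599 in Hdac2 ECKO, 0.521 to 1.04 in Ezh2 ECKO and 0.142 to 0.659 in beta-catenin GOF, highest without WT 3. Library size alone moved the median of all genes in Hdac2 ECKO from 0.10 to 0.34 and that of the members to 0.56. The count of members called depended on the tool and the libraries, and the cause was not tested. For Hdac2 ECKO against WT it was 3, with 9 without a filter, 5 at a mean count of at least 50, 20 by library size alone, 9 with the length trend removed, 8 by DESeq2, 47 with sample quality weights, 5 with the replicate block and 26 with the block and the length trend removed. Leaving out 1 library gave 0 to 22. For Ezh2 ECKO against WT it was 0, with 27 without a filter, 24 by DESeq2, 51 with quality weights, 2 with the replicate block, 20 with the block and the length trend removed, and 0 to 43 with 1 library left out (43 without WT 3, 12 without Ezh2 ECKO 2, 3 without Hdac2 ECKO 2). For beta-catenin GOF against WT it was 0 throughout. For Hdac2 ECKO and Ezh2 ECKO against WT, a share of all genes called is given above for DESeq2, quality weights, the length trend removed and the fit without WT 3. For beta-catenin GOF against WT it is given for the main edgeR fit alone. In Ezh2 ECKO it is also given without Ezh2 ECKO 2. For the other alternatives no such share is given, so their counts cannot be told from a change in calls over all genes.

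Between mutants, the counts without a filter were 2 for Hdac2 ECKO against Ezh2 ECKO, 6 for beta-catenin GOF against Hdac2 ECKO and 4 for beta-catenin GOF against Ezh2 ECKO. DESeq2 gave 1 for the first and 5 for the second, and quality weights gave 1, 18 and 8. Leaving out 1 library gave 0 to 4 for the second (4 without Ezh2 ECKO 2, 3 without Hdac2 ECKO 2) and 0 to 1 for the third. For the counts without a filter or with 1 library left out, no share of all genes is given here either. The correlations of same-numbered libraries were all above 0.1 for Hdac2 ECKO with Ezh2 ECKO and for no other pair of groups. The replicate block was still fitted over all 4 groups, so its counts against WT also rest on numbers that did not pair with WT. No fit paired Hdac2 ECKO with Ezh2 ECKO alone. Of 6 libraries in each pair of groups, 4 correlated best with their own number for Hdac2 ECKO and Ezh2 ECKO, 2 for WT and Hdac2 ECKO, 0 for WT and Ezh2 ECKO, 1 for WT and beta-catenin GOF, 4 for Hdac2 ECKO and beta-catenin GOF and 6 for Ezh2 ECKO and beta-catenin GOF, whose same-numbered correlations were 0.010 to 0.037. That is a hint from the data, not from the design.

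The calls in Hdac2 ECKO were near the threshold. Over the alternatives, the edgeR, DESeq2 or limma adjusted p of Rpl38 was 0.000294 to 0.183, that of Rpl7l1 0.000225 to 0.173 and that of Rpl29 0.000148 to 0.170. Rpl38 was lost with median-ratio scaling (0.051) and with only the 2 groups compared (0.053), Rpl7l1 and Rpl29 with library size alone (0.052 and 0.055) and the length trend removed (0.056 and 0.057). Rpl7l1 was also lost with the transcript length trend removed (0.0809). All 3 were lost without WT 1, WT 2, Hdac2 ECKO 1, Hdac2 ECKO 3 or any beta-catenin GOF library, and Rpl29 also without WT 3 (0.0523).

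Some log2 fold changes that did not pass changed sign in some alternatives, among them −0.57 for Rpl3 and −0.58 for Rpsa in Hdac2 ECKO, whose groups did not overlap. In Hdac2 ECKO, Rps3a1 was −0.00968 without a filter, −0.0415 by median ratio and by DESeq2, −0.0217 with only 2 groups, and −0.158 to 0.29 with 1 library left out. With the transcript length trend removed (an alternative chosen after seeing the data), Rpl3 was 0.0547, Rplp2 −0.0860 and Rpsa 0.0123 there, and leaving out 1 library gave −0.000261 (without WT 1) to 0.512 for Rplp2. In Ezh2 ECKO, Rpsa was 0.0650 with the length trend removed, 0.0432 with the replicate block as well, 0.238 with the transcript length trend removed and −0.587 to 0.0263 (without Ezh2 ECKO 3) with 1 library left out. Rpl29 was −0.0882 with the transcript length trend removed and −0.0582 (without Ezh2 ECKO 2) to 0.559 with 1 library left out. In beta-catenin GOF, Rpl36a-ps1 was −0.0698 with the length trend removed, −0.0642 with the replicate block as well and −0.0530 with the transcript length trend removed, which gave −0.00173 for Rplp2 and −0.1849 for Rpl22l1. Rpl26 was 0.0176 with quality weights. With 1 library left out, Rpl26 was −0.482 to 0.273 (without WT 3), Rps3a1 −0.326 to 0.122 (without WT 3; 0.0186 without beta-catenin GOF 2), Rpl39l −0.2575 (without WT 1) to 0.884, Rpsa −0.0427 to 0.1165 and Rpl22l1 −0.2027 to 0.56, both negative without WT 1, WT 2 or beta-catenin GOF 1.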

Other observations

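The mitochondrial ribosome is built from a separate set of nuclear genes (Mrpl and Mrps), which were looked at after the values of the cytosolic set were seen. The 78 tested had median log2 fold changes of −0.37 in Hdac2 ECKO, 0.01 in Ezh2 ECKO and 0.19 in beta-catenin GOF, with 23, 41 and 57 of them positive. Other genes with transcript lengths like those of the cytosolic members had medians of −0.37, 0.00 and 0.08. Those of like gene length and level had −0.41, 0.03 and 0.06. In Hdac2 ECKO and Ezh2 ECKO the mitochondrial set thus lay near these other genes. In Hdac2 ECKO edgeR called 4 lower and 0 higher (5.13% and 0% of the set, against 5.38% and 3.82% of all genes). DESeq2 called 9 lower and 3 higher (backgrounds 14.6% and 10%), and limma-voom with quality weights 32 and 12 (21% and 21.7%). The edgeR share called lower was close to that of all genes. In Ezh2 ECKO edgeR called 0 (background 1.03%), with 18 at an unadjusted p under 0.05 (background 24.7%). DESeq2 called 9 higher and 3 lower there (11.5% and 3.85% of the set, against backgrounds of 5.03% and 5.39%). Limma-voom with quality weights called 12 higher and 17 lower (15.4% and 21.8%, against 14.7% and 15.1%). In beta-catenin GOF all 3 tools called 0, with 2 at an unadjusted p under 0.05 by edgeR (background 6.07%). No share of all genes is given there for DESeq2 and limma-voom. The cytosolic and mitochondrial sets were not tested against each other.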
